A study of Mus musculus with 18 samples.

Results

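The shortest fragments cut from the 5′ end of transfer RNA, named tRF-5a, were examined in mouse lung. They were taken as every row of the deposited tables of tRNA-derived small RNA (tsRNA) with the type tRF-5a, which gave 17 of 193 listed tsRNAs. Their parents were mitochondrial tRNAs for 6 and nuclear tRNAs for 11. The 9 tsRNA libraries fell into 3 groups of 3. Control mice received phosphate-buffered saline. COPD model mice, a model of chronic obstructive pulmonary disease, were exposed to cigarette smoke, were injected intraperitoneally with cigarette smoke extract and received saline as well. BMSC-treated mice had the same smoke model and were given 4000000 BMSCs, called mesenchymal stem cells in the series title, in 100 µl of saline through the tail vein. The labels name no strain, age or sex. They also do not say whether each library came from its own animal, so the p-values reflect only how these libraries scatter, which may be technical.

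A tRNA folds into a cloverleaf, and cleavage releases fragments that are classed by the part of the molecule they hold. tRF-5a fragments begin at the first base and end in or near the D arm. The classes tRF-5b, tRF-5c and tiRNA-5 begin at the same base and reach further into the tRNA. The mitochondrial genome encodes its own set of tRNAs, which are used only by mitochondrial ribosomes, whereas nuclear tRNAs serve the cytosol. The first part of many nuclear tRNA genes also holds the start of the A box, an internal promoter element of RNA polymerase III.

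The mitochondrial fragments with lower CPM in each COPD model library than in any control library are shown first. They were picked by these values. The asparagine fragment, with a mean of 35.5 CPM over the 9 libraries, is not among them. The glutamate fragment, with 17.3, is. Each is written 5′ to 3′ from tRNA base 1 with T for U. The capital marks the only base by which the longer glutamine fragment exceeds the shorter one.
mitochondrial Gln-TTG, 15 bases: taggataaggtgttT
mitochondrial Gln-TTG, 14 bases: taggataaggtgtt
mitochondrial Glu-TTC: gtttctgtagttgaat
mitochondrial Ile-GAT: agaaatatgtctgat

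The 6 nuclear leucine fragments are shown because they were most of the nuclear tRF-5a reads, and the serine and mitochondrial tyrosine fragments because they hold the same letters. Capitals mark the motif TGGCNNAG, searched on the strand of the fragment only. In nuclear tRNA genes it is a form of the start of the A box, and other forms were not searched. In the mitochondrial fragment only the letters are marked.
Leu-AAG-1: ggtagcgTGGCCGAGc
Leu-TAG-3: ggtagcgTGGCCGAGt
Leu-AAG-2: ggtagtgTGGCCGAGc
Leu-CAG-1: gtcaggaTGGCCGAGc
Leu-CAA-1: gtcaggaTGGCCGAGt
Leu-TAA-2: accaggaTGGCCGAGt
Ser-AGA-1: gtagtcgTGGCCGAGt
mitochondrial Tyr-GTA: ggtaaaaTGGCTGAGt

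Counting from 1 at the 5′ end, Leu-AAG-1 and Leu-TAG-3 differed by C16T, Leu-AAG-1 and Leu-AAG-2 by C6T, and Leu-CAG-1 and Leu-CAA-1 by C16T. Reads of such neighbours are told apart by 1 base, so their separate values are uncertain. The motif began at base 8 in 8 of 17 tRF-5a. These exact letters were in the first 16 bases of 4 of 126 longer 5′ fragments (3.18%), a count that leaves out other forms of the A box start. Gly-GCC-2 and Gly-CCC-1, for example, hold TGGTTCAG and TGGTGTAG from base 8, which were not counted. Leucine parents were frequent: 6 of 11 nuclear tRF-5a came from leucine tRNAs, against 1 of 99 longer nuclear 5′ fragments by name (1.01%). The other nuclear tRF-5a came from glycine tRNAs (2), a selenocysteine tRNA (SeC-TCA-1) and serine tRNAs, and the fragment named Gly-ACC-1 matches 1 glycine and 7 valine tRNAs, so its reads cannot be assigned to either amino acid. The other mitochondrial parents were the asparagine and tyrosine tRNAs.

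Fragments were 14 bases long in 1 case, 15 in 5 and 16 in 11. The share of G and C was lower with mitochondrial parents, at 26.7% to 43.8% with a median of 34.5%, than with nuclear ones, at 46.7% to 75.0% with a median of 66.7%. G was the first base of 10 of 11 nuclear and 2 of 6 mitochondrial fragments. None of the 17 began with GGGG. RefSeq places the parent genes (assembly GRCm38.p6, the mm10 build) on chromosome M: the glutamine tRNA TrnQ at 3772 to 3842, the glutamate tRNA TrnE at 14071 to 14139, the isoleucine tRNA TrnI at 3706 to 3774, the asparagine tRNA TrnN at 5089 to 5159 and the tyrosine tRNA TrnY at 5260 to 5326. All are tRNA genes with no coding exon. The files list 1 parent tRNA for 10 of the 17 fragments and 2 to 8 for the other 7. Beyond these listed parents, Ser-AGA-1 alone occurred in another of the 105 listed tRNAs, a precursor of the same serine family. None of the 17 sequences occurred in 1005 RefSeq miRNA hairpins.

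The whole parents of the most abundant mitochondrial fragment and of a leucine fragment are given to show how little of the tRNA the fragment covers. The fragment is in capitals, and the added CCA is at the 3′ end.
mitochondrial tRNA Gln-TTG: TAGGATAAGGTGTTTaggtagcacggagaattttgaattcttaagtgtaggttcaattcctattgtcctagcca
tRNA Leu-TAG-3: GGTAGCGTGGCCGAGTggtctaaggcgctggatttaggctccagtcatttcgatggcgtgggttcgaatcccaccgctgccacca

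The libraries held 440448 to 1742029 counts of listed tsRNAs, of which 501 to 2327 were tRF-5a. Values are given in CPM, the counts as the authors scaled them to the reads of the whole library. Control 2, COPD model 3 and BMSC-treated 2 had the lowest totals of their groups, and in these the listed tsRNAs of mitochondrial parents took 11.1% to 23.5% of listed counts, against 5.08% to 7.24% in the other 6 libraries. The part of this in the results was not tested. Lung markers were present in the mRNA libraries of the same tissue, with Sftpc, the surfactant protein C gene, at 614 to 3249 FPKM and Ager, an alveolar type 1 cell gene, at 14.7 to 129 FPKM. In bulk tissue, fewer cells of a type and less RNA per cell cannot be told apart.

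tRF-5a were a small share of listed tsRNA counts: 0.0662%, 0.186% and 0.0854% in control, 0.0627%, 0.0574% and 0.114% in COPD model, and 0.155%, 0.247% and 0.0968% in BMSC-treated libraries 1 to 3. The mean shares were 0.113% ± 0.0646, 0.0779% ± 0.0311 and 0.166% ± 0.0759 (SD, n = 3 each). The groups overlapped. All 17 tRF-5a had reads in every library, but 5 of them reached 20.15 CPM, the lowest peak value of any listed tsRNA, in a single library, and 3 did so in all 9. The highest value lay in a BMSC-treated library for 12 members, in a control library for 5 and in a COPD model library for 0. No such count over all listed tsRNAs is given, so whether this is unusual is not known. Members at 20.15 CPM in a single library necessarily count for that library. These were Gly-CCC-1, Leu-CAG-1 and Gly-ACC-1 for the BMSC-treated group, and the tyrosine and serine fragments for control 2.

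Within tRF-5a, reads with a mitochondrial parent were a smaller share in the COPD model than in control. They made up 67.6%, 67.3% and 52.9% of tRF-5a counts in control, 49.9%, 36.3% and 40.3% in COPD model, and 64.0%, 73.4% and 19.1% in BMSC-treated libraries. This share does not depend on how libraries are scaled. All 3 COPD model libraries lay below all 3 control libraries, with means of 42.2% ± 6.97 and 62.6% ± 8.38 (SD, n = 3 each), whereas the BMSC-treated libraries spanned both groups, with BMSC-treated 3 the lowest of all 9 and a mean of 52.2% ± 29.0 (SD, n = 3). As a sum over chosen members the share was given no test. The nearest libraries were not separated by counting error: the exact Clopper-Pearson 95% interval ran from 46.2% to 53.6% in COPD model 1 and from 50.3% to 55.6% in control 3. Without the 15-base glutamine fragment the shares were 50.6%, 49.4% and 36.8% in control against 38.0%, 26.9% and 28.1% in COPD model, so that the groups then overlapped by 1 library. Such intervals cover counting error within a library only, and not the spread between libraries. Reads carried no molecular identifiers, so copies of a molecule may be counted more than once and the intervals may be too narrow.

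In CPM, the mitochondrial tRF-5a summed to 304, 534 and 279 in control, 205, 122 and 226 in COPD model, and 699.8, 813 and 122 in BMSC-treated libraries. The nuclear tRF-5a summed to 146, 259.6 and 248, then 206, 214 and 335, then 394, 295 and 515. Mitochondrial sums were lower in every COPD model than in every control library. Nuclear sums of the COPD model overlapped with both other groups, and those of all BMSC-treated libraries lay above all control libraries. Both separations were also there on the TMM-scaled values used in the fit. In the mRNA libraries, the 13 mitochondrially encoded mRNAs took 89.3%, 65.1% and 46.9% of FPKM in control libraries 1 to 3. They took 30.0%, 28.3% and 23.9% in COPD model, and 92.2%, 70.8% and 55.6% in BMSC-treated libraries. The share thus fell from library 1 to library 3 in each group. The labels do not tie an mRNA to a tsRNA library, and any relation was not tested.

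The first comparison asks what the smoke model changed. No tRF-5a passed the test: edgeR's quasi-likelihood test with Benjamini-Hochberg adjustment called 0 of 17 tRF-5a and 0 of 191 tested tsRNAs (0%) at an adjusted p under 0.05, against 2 tsRNAs with DESeq2, neither of them a tRF-5a. The mitochondrial fragments of Glu, Gln and Ile were lower in each COPD model library than in any control library, and 1 leucine fragment was higher. At an unadjusted p under 0.05, 11 tsRNAs differed. Of these, 2 were lower, 1.05% of those tested, and both were tRF-5a (Glu and 15-base Gln), while 4.71% were higher and no tRF-5a was. CPM of the groups did not overlap, with the COPD model lower, for 4 of 17 tRF-5a against 5.24% of tsRNAs tested, and with it higher for 1 of 17 against 5.24%. On TMM-scaled CPM these counts were 3 lower, against 3.66% of tsRNAs tested, and 2 higher, against 9.95%. Glu, counted as lower, reached 20.15 CPM in no COPD model library, so its place in the list may rest on the other groups.

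The 15-base fragment of the mitochondrial glutamine tRNA, tRF-1:15-chrM.Gln-TTG, was the most abundant tRF-5a, with a mean of 185 CPM over the 9 libraries. It stood at 155, 281 and 134 CPM in control, 78.5, 43.2 and 95.2 in COPD model, and 459.6, 371 and 47.6 in BMSC-treated libraries. All COPD model libraries were below all control libraries, and BMSC-treated 1 and 2 were above all others while BMSC-treated 3 lay among the COPD model values. The log2 change in the COPD model was -1.29 (SE 0.62), with an adjusted p of 0.758 from edgeR's quasi-likelihood test with Benjamini-Hochberg adjustment.

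The 14-base fragment of the same tRNA stood at 37.5, 50.3 and 46.3 CPM in control, 26.2, 19.0 and 15.7 in COPD model, and 46.1, 51.3 and 11.3 in BMSC-treated libraries. It shares its parent and all its bases with the 15-base fragment and is not independent of it. It was likewise lower in all COPD model libraries, with a log2 change of -1.01 (SE 0.63, edgeR adjusted p = 0.866). There were 2.27 to 6.07 reads of 15 bases per read of 14 bases in COPD model, 2.90 to 5.59 in control and 4.20 to 9.98 in BMSC-treated libraries, so the ratios overlapped.

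The glutamate fragment, tRF-1:16-chrM.Glu-TTC, stood at 18.1, 24.1 and 17.5 CPM in control, 2.28, 5.15 and 5.60 in COPD model, and 31.0, 43.8 and 8.30 in BMSC-treated libraries. The COPD model values rest on 4, 10 and 5 reads and lay below all others. Its log2 change of -2.14 (SE 0.76) in the COPD model was the most negative of the 191 tested tsRNAs, with an adjusted p of 0.352 by edgeR's quasi-likelihood test with Benjamini-Hochberg adjustment. The fragment reached 20.15 CPM, the lowest peak of any listed tsRNA, only in control 2 and in BMSC-treated 1 and 2. Its place in the list may thus rest on the groups where it is higher than in the COPD model.

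The isoleucine fragment, tRF-1:15-chrM.Ile-GAT, stood at 62.4, 94.3 and 55.2 CPM in control, 54.6, 32.4 and 38.1 in COPD model, and 118, 281 and 13.97 in BMSC-treated libraries. Control 3 and COPD model 1 nearly met, and on the TMM-scaled values used in the fit these groups overlapped, which left 3 mitochondrial fragments apart. Its log2 change in the COPD model was -0.63 (SE 0.65, edgeR adjusted p = 0.936).

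The asparagine and tyrosine fragments did not follow this order. Asparagine stood at 25.3, 61.3 and 16.4 CPM in control, 31.9, 19.0 and 52.6 in COPD model, and 31.5, 47.6 and 34.0 in BMSC-treated libraries, and all 3 groups overlapped. Tyrosine ranged from 3.09 to 23.4 CPM over the 9 libraries. The median log2 change in the COPD model was -0.82 over the 6 mitochondrial tRF-5a and 0.23 over the 11 nuclear ones. It was 0.12 over 40 mitochondrial and 0.23 over 134 nuclear tsRNAs of other types, and 0.21 over all 191 tested. Over 15 alternatives the mitochondrial tRF-5a median ran from -1.27 to -0.66 and kept its sign. The nuclear median and that over all tsRNAs did not: without control 3 they were -0.22 and -0.11, without COPD model 3 they were 0.014 and 0.078, and without the library of lowest total in each group 0.12 and -0.047.

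The leucine fragments were the largest nuclear family, at 59.8% to 83.7% of nuclear tRF-5a reads. tRF-1:16-Leu-AAG-1-M2, which matches 2 listed tRNAs, stood at 25.8, 33.1 and 32.5 CPM in control, 51.2, 44.3 and 78.4 in COPD model, and 119.8, 54.1 and 191 in BMSC-treated libraries. Every COPD model and BMSC-treated library was above every control library, and those 2 groups overlapped. The log2 change in the COPD model was 0.99 (SE 0.61, edgeR adjusted p = 0.866).

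tRF-1:16-Leu-TAG-3 stood at 20.8, 52.3 and 51.5 CPM in control, 50.6, 43.2 and 96.3 in COPD model, and 103, 47.6 and 119 in BMSC-treated libraries. tRF-1:16-Leu-AAG-2-M3 stood at 6.33, 16.5 and 19.8, then 14.8, 13.4 and 31.4, then 45.1, 42.9 and 41.1 CPM in the same order. For Leu-TAG-3 all groups overlapped, whereas Leu-AAG-2 was higher in each BMSC-treated library than in any other. The COPD model changes of these fragments were 0.71 and 0.56 on the log2 scale, neither passing the test.

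Of the other nuclear members, Leu-CAG-1 was higher in each BMSC-treated library, at 14.1, 16.8 and 20.4 CPM, than in any COPD model library, at 9.10, 12.4 and 8.96. Only BMSC-treated 3 reached the 20.15 CPM that every listed tsRNA reaches at its peak. The selenocysteine fragment, tRF-1:15-SeC-TCA-1, stood at 17.6, 37.2 and 54.9 CPM in control, 30.7, 33.5 and 14.6 in COPD model, and 29.1, 29.9 and 22.6 in BMSC-treated libraries, with overlap throughout. The serine fragment, the lowest member by mean, was at 25.5 CPM in control 2 and 13.1 in BMSC-treated 2 and between 3.17 and 6.04 in the other 7 libraries. The glycine fragments Gly-GCC-2 and Gly-CCC-1 ranged from 5.69 to 53.98 CPM, Gly-ACC-1 from 3.98 to 40.1, Leu-CAG-1 and Leu-CAA-1 from 5.43 to 24.8, and Leu-TAA-2 from 1.87 to 33.8, with its lowest value, in BMSC-treated 2, under the 2.80 CPM that 3 counts make in that library.

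The second comparison asks what BMSC treatment changed in the smoke model. edgeR's quasi-likelihood test with Benjamini-Hochberg adjustment called 0 of 17 tRF-5a and 0 of 191 tsRNAs (0%), with 25 tsRNAs at an unadjusted p under 0.05. DESeq2 called 1 tsRNA, the mitochondrial glutamate tRF-5a. All 17 tRF-5a had a log2 change above 0, against 86 of 191 tsRNAs (45.0%). Glu, Tyr, Gly-CCC-1, Leu-CAG-1, Gly-ACC-1, Leu-TAA-2 and Ser-AGA-1 reached 20.15 CPM, the lowest peak of any listed tsRNA, in no COPD model library. They may thus be listed through the other groups, which favours a change above 0 here. How many of all listed tsRNAs do so is not given. At an unadjusted p under 0.05, 5 of 17 tRF-5a were higher, against 4.71% of tsRNAs, and 0 were lower, against 8.38%. The groups did not overlap, with the BMSC-treated higher, for 3 of 17 tRF-5a (Glu, Leu-AAG-2 and Leu-CAG-1) against 3.14%, and with it lower for 0 against 12.0%. Of the 3 higher ones, Leu-CAG-1 reached 20.15 CPM in BMSC-treated 3 alone, and Glu in control 2 and in BMSC-treated 1 and 2. The place of Leu-CAG-1 in the list may thus rest on the group where it is counted as higher. That of Glu may rest on the groups other than the COPD model.

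The glutamate fragment had a log2 change of 2.72 (SE 0.77, edgeR adjusted p = 0.0636), and the 15-base glutamine fragment one of 2.05 (SE 0.64, edgeR adjusted p = 0.0873). Over the alternatives, adjusted p ran from 0.00875 to 0.429 for glutamate and from 0.0227 to 0.616 for glutamine. Both passed without control 2 (0.025 and 0.0227) and without BMSC-treated 3 (0.0367 each), so the call rests on which library enters. For glutamate the call also rests on the method, since DESeq2 on all libraries gave an adjusted p of 0.00875. BMSC-treated 3 had 8.30 CPM of the glutamate and 47.6 CPM of the glutamine fragment, the lowest of its group for each.

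Isoleucine had a log2 change of 1.65 (SE 0.66, edgeR adjusted p = 0.331), Leu-AAG-1 one of 1.38 (SE 0.61, edgeR adjusted p = 0.357) and Leu-AAG-2 one of 1.33 (SE 0.65, edgeR adjusted p = 0.377). The median was 1.24 over mitochondrial and 0.79 over nuclear tRF-5a. The order of these medians turned without BMSC-treated 2, at 0.71 and 1.06, and without the library of lowest total in each group, at 0.71 and 1.02. Without BMSC-treated 3 the nuclear median was 0.37. In the fit of all libraries it was 0.36 and -0.34 over mitochondrial and nuclear tsRNAs of other types and -0.10 over all. The 6 listed tRF-2, internal fragments of the same 14 to 16 bases with mitochondrial parents, had a median of 0.15. The number of tRF-5a above 0 was 16 or 17 in each of 15 alternatives. These counts describe members that share libraries and scaling, and the COPD model libraries enter both this comparison and the first. The counts also include the members that reached 20.15 CPM in no COPD model library.

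The third comparison sets treated against control mice. edgeR's quasi-likelihood test with Benjamini-Hochberg adjustment called 0 of 17 tRF-5a and 0 of 191 tsRNAs (0%), with 7 tsRNAs at an unadjusted p under 0.05. DESeq2 called 1 tsRNA, the tRF-5a Leu-AAG-1. At an unadjusted p under 0.05, 3 of 17 tRF-5a were higher, all of them leucine fragments, against 2.09% of tsRNAs, and 0 were lower, against 1.57%. CPM did not overlap, with the BMSC-treated higher, for 2 of 17 (Leu-AAG-1 and Leu-AAG-2) against 1.57%, and with it lower for 0 against 3.14%. On TMM-scaled CPM 4 tRF-5a were higher without overlap, with Leu-CAG-1 and Gly-ACC-1 added, against 4.71% of tsRNAs tested. Both of those added reached 20.15 CPM, the lowest peak of any listed tsRNA, in a single BMSC-treated library. Their place in the list may thus rest on that group.

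Leu-AAG-1 had a log2 change of 2.36 (SE 0.63, edgeR adjusted p = 0.100), the largest of the 191 tested tsRNAs here, and its adjusted p ran from 0.0059 to 0.831 over the alternatives. It passed without BMSC-treated 2 (0.0059), with DESeq2 (0.0115) and without the library of lowest total in each group (0.00591), where Leu-TAG-3 passed too (0.0441). Leu-AAG-2 had a log2 change of 1.89 (SE 0.65, edgeR adjusted p = 0.570) and Leu-TAG-3 one of 1.50 (SE 0.61, edgeR adjusted p = 0.604). Glutamine of 15 bases, at 0.77, and glutamate, at 0.58, did not pass. The median was 1.33 over the 6 leucine tRF-5a, 0.50 over the 6 mitochondrial ones and 0.09 over all tested. Over 40 mitochondrial tsRNAs of other types it was 0.34, with 35 of them (87.5%) above 0. Over 134 nuclear tsRNAs of other types it was -0.10. Over 16 alternatives the leucine median ran from 0.91 to 1.79. The mitochondrial median ran from 0.11, without control 3 and with 3 of 6 members above 0, to 0.81 without control 2, and it was 0.20 without BMSC-treated 2 and 0.32 without BMSC-treated 1.

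The leucine fragment Leu-TAG-3 could be set beside a tiRNA-5 of the same tRNA, tiRNA-1:35-Leu-TAG-3. That tiRNA-5 stood at 52.9, 100.5 and 52.2 CPM in control, 122.9, 101.9 and 190.4 in COPD model, and 38.5, 53.2 and 25.7 in BMSC-treated libraries. Per 100 reads of the tiRNA-5 there were 39.3, 52.1 and 98.6 reads of the tRF-5a in control, 41.2, 42.4 and 50.6 in COPD model, and 268, 89.5 and 462 in BMSC-treated libraries. The ratio was higher in every BMSC-treated than in every COPD model library and overlapped with control. The log2 change of the tiRNA-5 itself after treatment of the model was -1.71 (SE 0.58, edgeR adjusted p = 0.140), which did not pass.

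Of the 17 tRF-5a, 8 had a listed longer 5′ fragment that begins with the whole of it and 9 had none, among them glutamate, asparagine and tyrosine. The 15-base glutamine fragment was found at 173, 158 and 133 reads per 100 of the one longer fragment in control, 137, 88.4 and 224 in COPD model, and 537, 190.4 and 96.9 in BMSC-treated libraries. Isoleucine was found at 10.7, 11.4 and 11.5 per 100 in control, 10.8, 7.28 and 5.45 in COPD model, and 12.6, 12.2 and 4.65 in BMSC-treated libraries. Glutamine groups overlapped, and isoleucine was close to level in control and lowest in BMSC-treated 3. The glycine fragment Gly-GCC-2 was at most 0.00959 per 100 of its longer fragments. The selenocysteine fragment was found at 52.7, 58.7 and 144 per 100 of its tiRNA-5 in control libraries. In COPD model libraries it was at 100, 48.9 and 52.0, and in BMSC-treated libraries at 282, 88.9 and 214. These last groups overlapped, as did those of the Gly-CCC-1 ratio. The Gly-ACC-1 ratio was 0.97, 0.76 and 0.85 per 100 in control libraries. It was 0.546, 1.33 and 2.87 in COPD model and 1.691, 7.875 and 1.248 in BMSC-treated libraries. Every BMSC-treated library thus lay above every control library, and the COPD model overlapped with both groups. Gly-ACC-1 reached 20.15 CPM in BMSC-treated 2 alone, so its place in the list may rest on that group.

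Across the 9 libraries, pairs of mitochondrial tRF-5a had the highest median correlation of the 3 kinds of pair. Pearson's r of log2(CPM + 1) had a median of 0.660 over 15 mitochondrial pairs, with a range of 0.032 to 0.886. It had a median of 0.284 over 55 nuclear and of 0.122 over 66 mixed pairs. Leu-AAG-1 and Leu-TAG-3 reached 0.883. These are descriptions over libraries that the members share, and the 2 glutamine fragments share a parent.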

How the data were processed

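tsRNA was sequenced from total RNA of mouse lung after a pretreatment that removes modifications which hinder library construction, per the labels' protocols. The submitters' processing notes name Bowtie, cutadapt, FastQC and StringTie and the build mm10. For each tool, version and role: not given in the sources used here. Raw counts per tsRNA were deposited by the authors, with the same tsRNAs in CPM. Dividing one by the other gave library totals of 893028 to 2679933 reads, of which listed tsRNAs were 42.6% to 70.58%. A count floor of 3 equals 1.12 to 3.36 CPM. The authors deposited mRNA values as FPKM, used here without a test.

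Counts were fitted with edgeR 4.0.16 in R 4.3.3 (quasi-likelihood, TMM, filterByExpr, all 9 libraries). It kept 191 of 193 tsRNAs and all 17 tRF-5a, with a common biological coefficient of variation of 0.545. Benjamini-Hochberg adjusted p under 0.05 over all 191 made a call. The code was checked on simulated data. Alternatives were DESeq2 1.42.0, implied totals without TMM, no filter, only the 2 groups compared, a replicate block and leaving out each library. A block over control and BMSC-treated libraries only, and leaving out the library of lowest total in each group, were added after seeing the data. Deviations of same-numbered libraries correlated at 0.717, 0.738 and 0.203 between control and BMSC-treated, which pairs them by the rule that all exceed 0.1, although control 3 correlated more with BMSC-treated 1 (0.581) than with its own number; between control and COPD model they were 0.466, -0.598 and -0.517, and between COPD model and BMSC-treated 0.542, -0.36 and -0.082, which pairs neither. Tables were made with Python 3.11.15, pandas 2.3.3 and numpy 2.4.6.

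Members given per library were the 8 highest by mean CPM, any called, and the 2 most positive and 2 most negative changes per comparison; Leu-CAG-1 was named after its values were seen. The members and lists were chosen with earlier results of these data known. Mitochondrial genes were located by RefSeq; nuclear tRNA genes were not located.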

Additional observations from a re-analysis of the deposited data

How the results depend on the processing

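No tRF-5a was called in the fit as reported. The COPD model values of the glutamate fragment rest on 4 to 10 reads per library. Without TMM, on the totals implied by the deposited values, the median change of all tsRNAs moved from 0.21 to 0.08, from -0.10 to -0.27 and from 0.09 to -0.13 in the 3 comparisons in the order reported. The cause of each change below was not tested.

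tsRNAs called in COPD model against control were 1 with the replicate block and 2 with DESeq2; in BMSC-treated against COPD model they were 2 with implied totals, 3 with the replicate block, 3 with only the 2 groups and 1 with DESeq2; in BMSC-treated against control they were 1 with DESeq2 and 3 without the libraries of lowest total. tRF-5a called were 1 with DESeq2 in each comparison with the BMSC-treated group and 2 without the libraries of lowest total in BMSC-treated against control. The replicate block called no tRF-5a in any comparison. Leaving out 1 library gave 0 to 3, 0 to 6 and 0 to 1 tsRNAs and 0, 0 to 2 and 0 to 1 tRF-5a. The mitochondrial share without the most abundant tRF-5a was 45.6% in control and 31.0% in COPD model, and the tRF-5a share of implied totals in COPD model was 0.0436%.

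All 17 log2 changes were recomputed in each comparison. Signs turned for 8 members in COPD model against control, 4 in BMSC-treated against COPD model and 7 in BMSC-treated against control, none past the threshold. In COPD model against control, leaving out 1 library gave -0.24 to 0.68 for Gly-ACC-1, -0.56 to 0.014 for SeC, -0.55 to 0.59 for Asn, -0.58 to 0.27 for Gly-GCC-2, -0.40 to 0.50 for Leu-CAA-1, -0.22 to 0.52 for Leu-CAG-1, -1.67 to 0.46 for Ser-AGA-1 and -0.59 to 0.46 for Tyr. Without the libraries of lowest total Gly-ACC-1 was -0.42 and Ser-AGA-1 0.39; DESeq2 gave -0.058 for Asn and -0.15 for Leu-CAA-1, and implied totals -0.084 for Leu-CAA-1. In BMSC-treated against COPD model the ranges were -0.18 to 0.37 for SeC, -0.34 to 0.57 for Gly-CCC-1, -0.061 to 1.06 for Leu-TAA-2 and -0.18 to 0.73 for Tyr, and SeC was -0.021 without the libraries of lowest total. In BMSC-treated against control they were -0.44 to 0.19 for 14-base Gln, -0.42 to 0.081 for SeC, -0.12 to 0.89 for Asn, -0.032 to 0.76 for Leu-CAA-1, -0.76 to 0.36 for Leu-TAA-2, -0.87 to 1.12 for Ser-AGA-1 and -0.16 to 0.74 for Tyr. There, without the libraries of lowest total, Leu-TAA-2 was 0.082 and Ser-AGA-1 0.76; the replicate block gave 0.042 for Ser-AGA-1, or 0.10 over control and BMSC-treated libraries only; implied totals gave -0.057 for Leu-CAA-1 and -0.053 for Tyr.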
